A study of Homo sapiens with 12 samples.

Results

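The response of TC32 cells to mithramycin was described as the difference of group means between 3 arrays of cells exposed to 100 nM mithramycin for 6 h and 3 arrays of cells given the control solvent. These 6 arrays were chosen by source name from the 12 of the study. The other 6 came from TC71, a second Ewing sarcoma line, treated in the same way with arrays of its own controls. TC32 is an established human line, so each group stands for 1 tumour, and the labels describe the arrays of a group as biological replicates. The labels do not say whether the replicates came from separate cultures, and the p-values then measure the spread between these arrays, which may be technical. All 19775 genes with a named probe set were tested, and each value is a log2 value per array as the authors deposited it.

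Ewing sarcoma is a tumour of bone and soft tissue driven by a fusion of EWSR1 with an ETS factor, most often FLI1, that drives transcription from abnormal sites. Mithramycin (plicamycin) is an antibiotic that binds the minor groove of GC-rich DNA and displaces factors of the Sp and KLF families, which read the GC box GGGCGG. It has been studied as an inhibitor of EWS-FLI1 activity in this tumour. After a few hours of exposure, mRNAs with short half-lives show a change in their synthesis sooner than stable ones.

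The promoters of the 3 largest falls and the 3 largest rises (rule below) are shown because mithramycin binds GC-rich DNA. They give the GC-box content at 1 annotated start of each gene, and other starts of these genes were not examined. Each runs from 250 bases before to 50 bases after the RefSeq start in GRCh38.p14, 5′ to 3′ on the strand of the gene, and capitals mark GGGCGG or, for the opposite strand, CCGCCC. The first 3 belong to genes that fell and the last 3 to genes that rose.
HDAC4 (chr2:239274732-239275031, minus strand): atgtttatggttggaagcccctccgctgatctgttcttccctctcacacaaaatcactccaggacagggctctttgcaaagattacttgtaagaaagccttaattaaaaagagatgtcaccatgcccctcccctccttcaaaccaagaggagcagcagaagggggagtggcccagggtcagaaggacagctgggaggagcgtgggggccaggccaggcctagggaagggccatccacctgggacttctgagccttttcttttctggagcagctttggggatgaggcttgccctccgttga
MAML2 (chr11:96343146-96343445, minus strand): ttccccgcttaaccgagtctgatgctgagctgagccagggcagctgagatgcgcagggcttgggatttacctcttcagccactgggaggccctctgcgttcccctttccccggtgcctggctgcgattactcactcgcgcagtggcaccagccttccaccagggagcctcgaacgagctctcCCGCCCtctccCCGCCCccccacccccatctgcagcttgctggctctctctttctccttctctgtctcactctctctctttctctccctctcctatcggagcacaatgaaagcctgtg
RFXAP (chr13:36818972-36819271, plus strand): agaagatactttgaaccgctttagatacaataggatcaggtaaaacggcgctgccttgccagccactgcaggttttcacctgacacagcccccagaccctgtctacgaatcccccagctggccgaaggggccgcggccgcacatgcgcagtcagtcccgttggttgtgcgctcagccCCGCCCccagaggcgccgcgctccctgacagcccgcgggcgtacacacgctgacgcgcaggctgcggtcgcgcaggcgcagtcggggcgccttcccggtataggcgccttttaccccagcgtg
ALDH8A1 (chr6:134950052-134950351, minus strand): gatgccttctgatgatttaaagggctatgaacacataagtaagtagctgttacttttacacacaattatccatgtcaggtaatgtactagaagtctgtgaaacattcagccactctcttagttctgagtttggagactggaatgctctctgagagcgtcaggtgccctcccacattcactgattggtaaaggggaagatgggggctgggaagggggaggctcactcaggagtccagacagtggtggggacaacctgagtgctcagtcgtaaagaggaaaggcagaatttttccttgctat
SCG5 (chr15:32641460-32641759, plus strand): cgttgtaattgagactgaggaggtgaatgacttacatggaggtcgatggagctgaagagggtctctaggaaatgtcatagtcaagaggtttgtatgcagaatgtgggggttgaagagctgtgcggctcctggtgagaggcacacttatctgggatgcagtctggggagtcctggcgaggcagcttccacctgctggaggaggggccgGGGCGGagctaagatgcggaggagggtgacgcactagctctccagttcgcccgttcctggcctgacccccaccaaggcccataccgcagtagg
HOXB-AS1 (chr17:48544101-48544400, plus strand): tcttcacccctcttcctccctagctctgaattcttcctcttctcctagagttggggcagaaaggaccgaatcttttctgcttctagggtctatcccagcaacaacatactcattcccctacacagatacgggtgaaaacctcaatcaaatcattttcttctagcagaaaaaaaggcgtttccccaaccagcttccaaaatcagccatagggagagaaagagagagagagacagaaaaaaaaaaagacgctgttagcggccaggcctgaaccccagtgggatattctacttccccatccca
The GC content of these windows was 54.3% for HDAC4, 61.3% for MAML2 and 65.3% for RFXAP. It was 46.7% for ALDH8A1, 58% for SCG5 and 46.7% for HOXB-AS1. MAML2 held 2 copies of the GC box, RFXAP and SCG5 held 1 each, and HDAC4, ALDH8A1 and HOXB-AS1 held 0 in this window.

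Promoters of genes at least 2-fold lower held at least 1 GC box about as often as those of other genes of like brightness. Of 15384 tested genes matched to the promoter table, 58.9% held GGGCGG on either strand. Among genes at least 2-fold lower with mithramycin the share was 67.7% (573 matched of 670), and among those at least 2-fold higher it was 54.0% (113 of 161). Genes with a mean of at least 6 held the motif in 72.4% of cases, those not called among them also in 72.4%, and those at least 2-fold lower among them in 68.5%. Mean GC content was 65.0% in genes at least 2-fold lower and 58.7% in genes at least 2-fold higher, against 61.7% over all matched genes. With a mean of at least 6 it was 65.8% in the falls, 61.6% in the rises and 64.8% in genes not called. The TATA motif TATAAA (either strand) stood in 8.76% of the matched promoters. It stood in 5.24% of those of genes at least 2-fold lower and in 15.9% of those of genes at least 2-fold higher. With a mean of at least 6 these shares were 5.33% and 11.1%, against 4.77% in genes not called. In all 27305 promoters of the table GGGCGG was held by 44.6%. These shares, copy numbers and GC contents describe 300-base windows at 1 annotated start per gene and were not tested.

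Mithramycin changed many genes a little and a smaller number strongly, and the strong changes ran mostly downward. At an adjusted p under 0.05 (limma, Benjamini-Hochberg over all genes), 5060 genes were called higher (25.6% of those tested) and 3831 lower (19.4%). At least 2-fold lower were 670 genes (3.39%) and at least 2-fold higher 161 (0.814%). At least 4-fold lower were 62 and higher 15, and at least 8-fold lower 6 and higher 2. The median change over all genes was 0.083, and 45% of the genes were called in either direction. The 3 treated and 3 control arrays did not overlap for 10046 genes (50.8%). Rises made up 56.9% of the calls as deposited, 40.1% with arrays centred on 15 housekeeping genes and 11.7% with arrays centred on 9 hybridization controls, spiked-in transcripts that read 0.229 higher on the treated arrays (exact permutation p = 0.1, the smallest possible with 3 against 3). These centrings moved every TC32 change by -0.065 and -0.23, so that the median of all genes became 0.019 and -0.15. With centring on hybridization controls 83 genes were at least 2-fold higher and 1112 at least 2-fold lower, so the direction of the strong changes did not depend on the scaling while the number of small rises did.

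**Figure D1:**
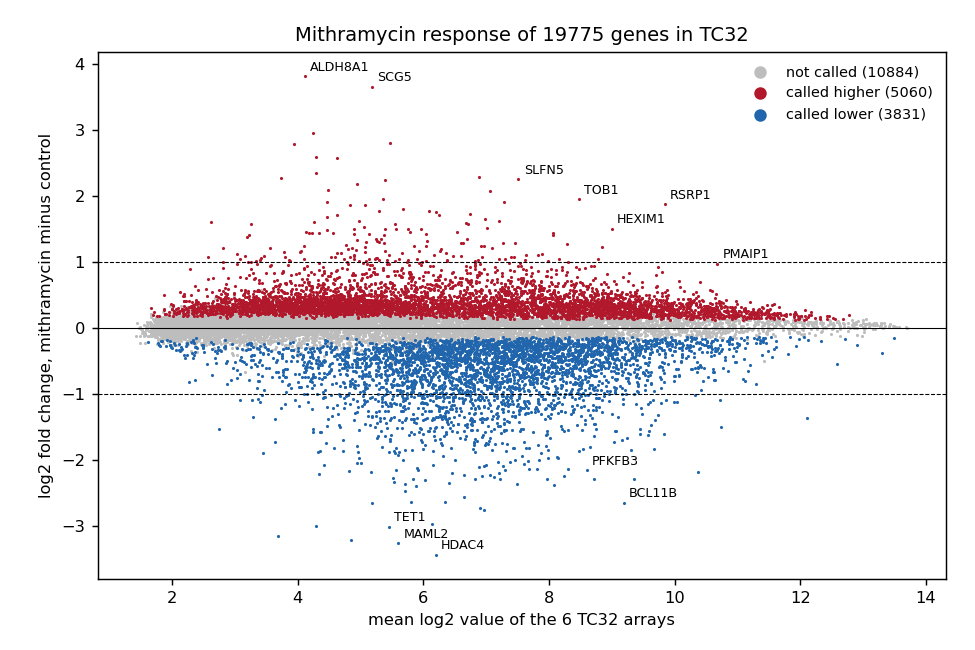
Change with mithramycin in TC32 (vertical axis, log2 units, mithramycin minus control) against the mean log2 value of the 6 TC32 arrays (horizontal axis) for 19775 genes. Red points are the 5060 genes called higher, blue points the 3831 called lower and grey points the rest, and dashed lines mark 2-fold. More points lie below the lower dashed line (670) than above the upper one (161). Of the strong falls, 339 have a mean between 6 and 8 over all arrays of both lines, which is not the mean on the axis.

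Falls were most frequent among genes of middle brightness. Brightness was the mean over all arrays of both lines, and the calls are those of TC32. Of 4366 genes with such a mean from 6 to 8, 39.8% were called lower and 25.9% higher, and 339 were at least 2-fold lower. Of 2954 genes from 8 to 10, 30.5% were lower and 36.5% higher, and 98 were at least 2-fold lower. Among 1066 genes of 10 or more, 15.3% were lower, 37.7% higher and 4 at least 2-fold lower. Below a mean of 4, near the floor of the arrays, 3.30% of 5727 genes were lower and 15% higher.

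The libraries of a group resembled each other. Within the treated group arrays correlated at 0.9948 or more, within the controls at 0.9965 or more, and between the groups at 0.982 or less. The interquartile range of the array values was 3.12 ± 0.07 on treated arrays and 3.32 ± 0.03 on control arrays (SD, 3 arrays each; exact permutation p = 0.1). For beta-actin, the 3' probe set exceeded the 5' set by 0.60 ± 0.08 on treated arrays and by 0.71 ± 0.04 on control arrays, a measure of RNA integrity (exact permutation p = 0.2). Their part in the results was not tested. Mithramycin replicate 2 had the widest interquartile range of the treated arrays (3.20). Among the 670 genes at least 2-fold lower it was the treated array nearest to the controls in 59.6%, with a median of -1.22 from the control mean, against -1.38 and -1.33 on replicates 1 and 3. Among the 161 genes at least 2-fold higher it was the nearest in 20.5%. Without that array 718 genes were at least 2-fold lower. The 7 Ewing sarcoma markers measured of 8 lay between 7.61 and 12.1 in controls, all above the array median of 4.40. Above the array median lay 4 of 12 neural, 5 of 11 fibroblast and muscle, 2 of 9 epithelial, 3 of 7 blood and 3 of 7 endothelial markers. The highest control level was 12.1 for neural, 9.80 for epithelial, 8.10 for fibroblast and muscle, 5.13 for endothelial and 5.02 for blood markers. The summed values of blood markers ran from 26.4 to 27.3 in controls and from 27.2 to 28.7 with mithramycin. Those of endothelial markers ran from 27.5 to 27.9 in controls and from 27.5 to 29.3 with mithramycin. The summed values of the Ewing sarcoma markers ran from 68.7 to 69.0 in controls and from 66.9 to 67.5 with mithramycin, with 3 of 7 lower. Those of fibroblast and muscle markers ran from 48.2 to 49.0 and from 49.0 to 50.5, with 3 of 11 higher. Epithelial markers ran from 37.8 to 38.7 and from 38.4 to 41.3, with 3 of 9 higher, and neural markers from 56.6 to 57.6 and from 56.6 to 58.3, with 2 of 12 higher and 1 lower. The rises were those of COL1A2 (0.53), FAP (0.40), THY1 (0.23), KRT5 (0.36), KRT18 (0.28), KRT19 (0.29), GFAP (0.34), ELAVL3 (0.19), CD14 (0.39), HBB (0.34) and VWF (0.29), and all of these 11 calls were lost, or for ELAVL3 the sign turned, with centring on hybridization controls. NEFL was at -0.67. COL1A2, FAP, CD14, KRT5, KRT19, VWF, NEFL and GFAP had mean control levels below the array median. Of the housekeeping genes used for scaling, POLR2A rose by 0.70 ± 0.08, GUSB by 0.35 ± 0.06 and TBP by 0.26 ± 0.06, and TUBB fell by 0.17 ± 0.05. The part of these markers in the results was not tested. In bulk RNA, fewer cells and less RNA per cell cannot be told apart.

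The 12 largest falls were taken among called genes with groups that did not overlap and with a mean of at least 6 in the higher group. HDAC4, a class IIa histone deacetylase, stood at 7.89, 7.91 and 7.93 in controls and 4.26, 4.89 and 4.28 with mithramycin. Its change was -3.43 ± 0.15 (SE). MAML2, a coactivator of Notch receptors, stood at 7.29, 7.36 and 7.05 in controls and 3.72, 4.16 and 4.04 with mithramycin. RFXAP, a subunit of the factor that binds MHC class II promoters, stood at 6.44, 6.58 and 6.34 in controls and 2.96, 3.54 and 3.22 with mithramycin. TET1, which oxidizes methylated cytosine, stood at 6.85, 7.03 and 6.98 in controls and 3.88, 3.92 and 4.02 with mithramycin and fell by 3.01 ± 0.07. EBF3, a helix-loop-helix factor of neural and mesenchymal differentiation, stood at 7.62, 7.56 and 7.71 in controls and 4.64, 4.7 and 4.62 with mithramycin and fell by 2.98 ± 0.07. In both the 3 arrays of a group lay close together, while the groups were far apart. The treated values of MAML2, RFXAP, TET1 and, further on, CXCL8 were below the array median on all 3 arrays and those of HDAC4 on 2 of 3, which makes the size of these falls rough. The probe set with the weakest change was at -0.27 for HDAC4, -0.86 for MAML2, -0.42 for RFXAP, -0.56 for TET1 and -0.36 for EBF3.

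SMAD6, an inhibitor of BMP signalling, stood at 8.42, 8.3 and 8.32 in controls and 5.3, 5.76 and 5.7 with mithramycin. It fell by 2.76 ± 0.12 at this probe set, but 2 of its 4 sets did not pass the test, and the set that remained without sets of the _x_at and _s_at types was at 0.28. VAV2, an exchange factor for small GTPases, stood at 8.19, 8.24 and 8.36 in controls and 5.51, 5.72 and 5.39 with mithramycin, and 1 of its 3 sets passed the test. BCL11B, a zinc finger repressor known as an EWS-FLI1 activated target, was the brightest of the 12. It stood at 10.51, 10.51 and 10.53 in controls and 7.8, 7.93 and 7.86 with mithramycin, and its 3 sets ran from -3.09 to -0.56. CXCL8, a neutrophil chemokine, stood at 6.49, 6.82 and 6.19 in controls and 3.98, 3.83 and 3.77 with mithramycin, and SHB, an adaptor with an SH2 domain, at 7.71, 7.86 and 7.41 in controls and 5.06, 5.04 and 4.95 with mithramycin. The weakest of the 4 sets of SHB was at 0.17. ZNF764, a zinc finger gene, fell by 2.63 ± 0.06. ZNRF3, which removes Wnt receptors from the membrane, stood at 7.99, 7.9 and 7.91 in controls and 5.45, 5.49 and 5.16 with mithramycin. For each of these 12 genes every treated array lay more than 2 log2 units below every control array.

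The 12 largest rises were chosen in the same way. ALDH8A1, an aldehyde dehydrogenase, stood at 2.14, 2.13 and 2.32 in controls and 6.11, 5.98 and 5.95 with mithramycin. SCG5, a chaperone of a prohormone convertase in secretory granules, stood at 3.66, 2.89 and 3.5 in controls and 6.97, 7.11 and 6.93 with mithramycin. HOXB-AS1, a non-coding transcript of the HOXB cluster, stood at 4.19, 3.85 and 4.13 in controls and 6.78, 6.87 and 6.94 with mithramycin and rose by 2.81 ± 0.08. Strand was not used here to tell it from its neighbours. The control levels of ALDH8A1, SCG5, HOXB-AS1 and, further on, UCN were below the array median on all 3 arrays. The control means of LSMEM1 (4.27) and LINC01198 (4.39), also further on, were below the mean array median of 4.40. The size of the rises of all these genes is rough. LEAP2, a liver peptide that blocks the ghrelin receptor, stood at 5.76, 5.82 and 5.66 in controls and 7.98, 8.08 and 8.0 with mithramycin. The Schlafen family member SLFN5 stood at 6.59, 6.24 and 6.32 in controls and 8.5, 8.67 and 8.72 with mithramycin, and its 6 probe sets ran from 0.92 to 3.31. All 6 were called higher.

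LSMEM1 stood at 4.62, 3.81 and 4.38 in controls and 6.44, 6.74 and 6.35 with mithramycin. UCN, a peptide of the corticotropin-releasing family, stood at 4.32, 3.58 and 3.64 in controls and 6.07, 6.21 and 5.79 with mithramycin. Their control arrays spread widely, and the lack of overlap with the treated arrays was a condition of the choice. ZNF211, a zinc finger gene, rose by 2.07 ± 0.06, and the non-coding RNA LINC01198 rose by 1.95 ± 0.12. TOB1, an antiproliferative gene that promotes mRNA deadenylation, stood at 7.53, 7.53 and 7.45 in controls and 9.27, 9.64 and 9.44 with mithramycin. SAT1, the acetyltransferase that starts polyamine breakdown, stood at 6.43, 6.19 and 6.39 in controls and 8.19, 8.34 and 8.21 with mithramycin. RSRP1, an arginine- and serine-rich nuclear protein, stood at 8.92, 8.79 and 9.01 in controls and 10.79, 10.8 and 10.75 with mithramycin. The last 3 were well above the array median in both groups, and every probe set of theirs was called higher.

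**Figure D2:**
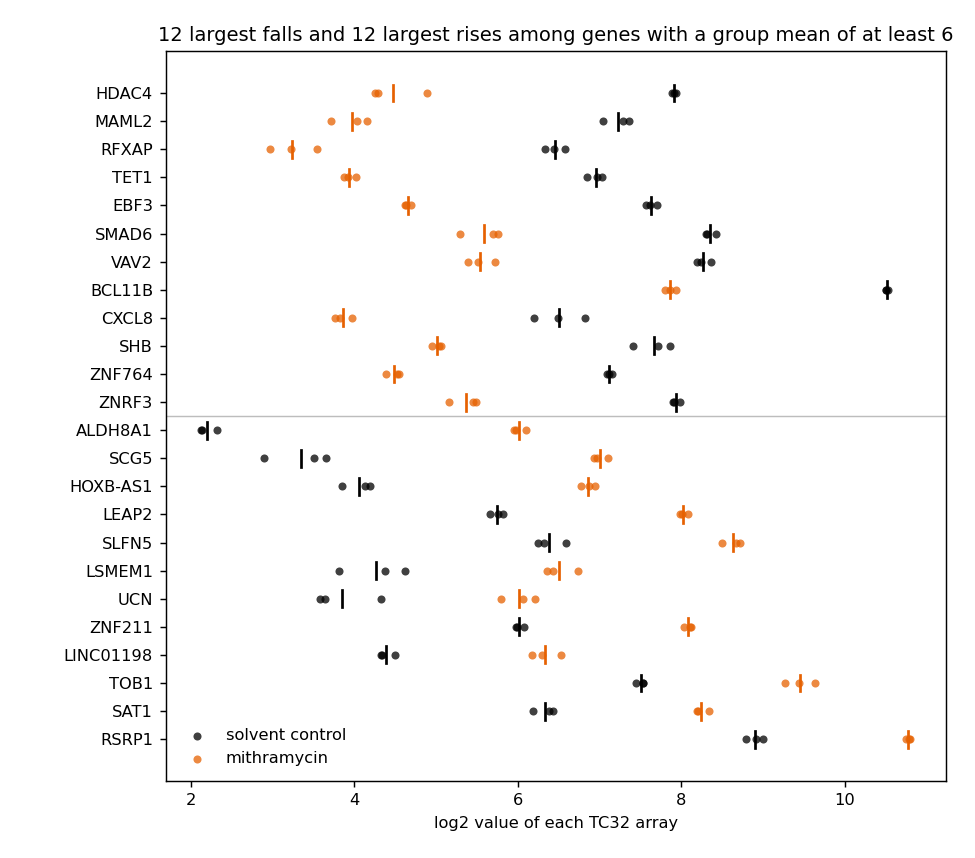
Log2 value of each TC32 array (horizontal axis) for the 12 largest falls (above the grey line) and the 12 largest rises (below it). Black points are solvent controls and orange points mithramycin, 3 arrays each, and vertical ticks are group means. The groups are apart for every gene because the rule required it. HDAC4 lies at about 4.3 to 4.9 against 7.9 and ALDH8A1 at about 6.0 against 2.1 to 2.3.

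Many genes had several probe sets, and these did not always move together. Of the 670 genes at least 2-fold lower, 525 had at least 2 sets. In 155 of them (29.5%) every set was called lower, and in 69 (13.1%) some set was called higher. Of 79 such genes among the 161 at least 2-fold higher, 39 (49.4%) had every set called higher and 9 (11.4%) had a set called lower. Genes with at least 3 sets, all called the same way, gave a second group of named genes, 8 in each direction by the mean of their sets. EXT1, a polymerase of heparan sulphate chains, had 3 sets between -2.5 and -1.9. The nuclear protein gene BANP had sets between -1.86 and -1.57, and LRP8, a reelin receptor, between -1.78 and -1.63. MLLT3, a subunit of the super elongation complex, had sets between -2.31 and -1.82. TCF7L2, the factor that carries beta-catenin to Wnt targets, had 7 sets, all called lower, between -2.25 and -0.58. SLITRK6, a membrane protein of neurons, had sets between -2.4 and -1.23. Rises of this kind were smaller at the brightest set: KRCC1 rose by 1.28 ± 0.07, CDKL3, a kinase gene, rose by 1.57 ± 0.12, and KLHL28 rose by 1.45 ± 0.10. LOC101928728 rose by 1.04 ± 0.08. ZNF785, a zinc finger gene, rose by 0.70 ± 0.08. LTB4R, the leukotriene B4 receptor, rose by 0.53 ± 0.08 at its brightest set, although another of its sets was at 2.04.

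The gene lists that follow were drawn up from textbook knowledge, and the counts are of members called in TC32. The share of every list beside that over all genes is shown in the plot of gene lists. Lists with a median TC32 control level from 6 to 8 are set beside genes with a mean in that range over the arrays of both lines. Of those genes 39.8% fell. The share that fell was near or below it for BCL2 family (40%), Notch (36.7%), histone acetylation (34.6%), EWS-FLI1 repressed (30%), p53 (28%), short-lived (27.3%) and cholesterol (20%) genes. The share that fell was 45% for focal adhesion and guanine exchange factors and 50% for Wnt genes. It was higher for homologous recombination (51.6%), the MYC network (54.5%), Sp and KLF factors (57.1%), PI3K and mTOR genes (60.9%), TGF-beta and BMP genes (71.9%) and histone methylation (76.2%). Lists with a median TC32 control level from 8 to 10 are set beside the 30.5% of genes with a mean in that range over both lines. The share that fell was near it for RNA polymerase II (35%), hypoxia (33.3%) and splicing (28.2%) genes. G1/S (26%), polyamine (23.1%) and lysosome (6.25%) lists lay below. Above lay ribosome biogenesis (50%), EWS-FLI1 activated (51.3%), remodelling (54.8%) and IGF (55.6%) genes. So did G2/M and stress response (57.1% each) and DNA methylation (68.8%). These shares were not tested. Named members are the 3 called members with the largest change and the largest change the other way, apart from those marked below as picked after their values were seen.

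**Figure D3:**
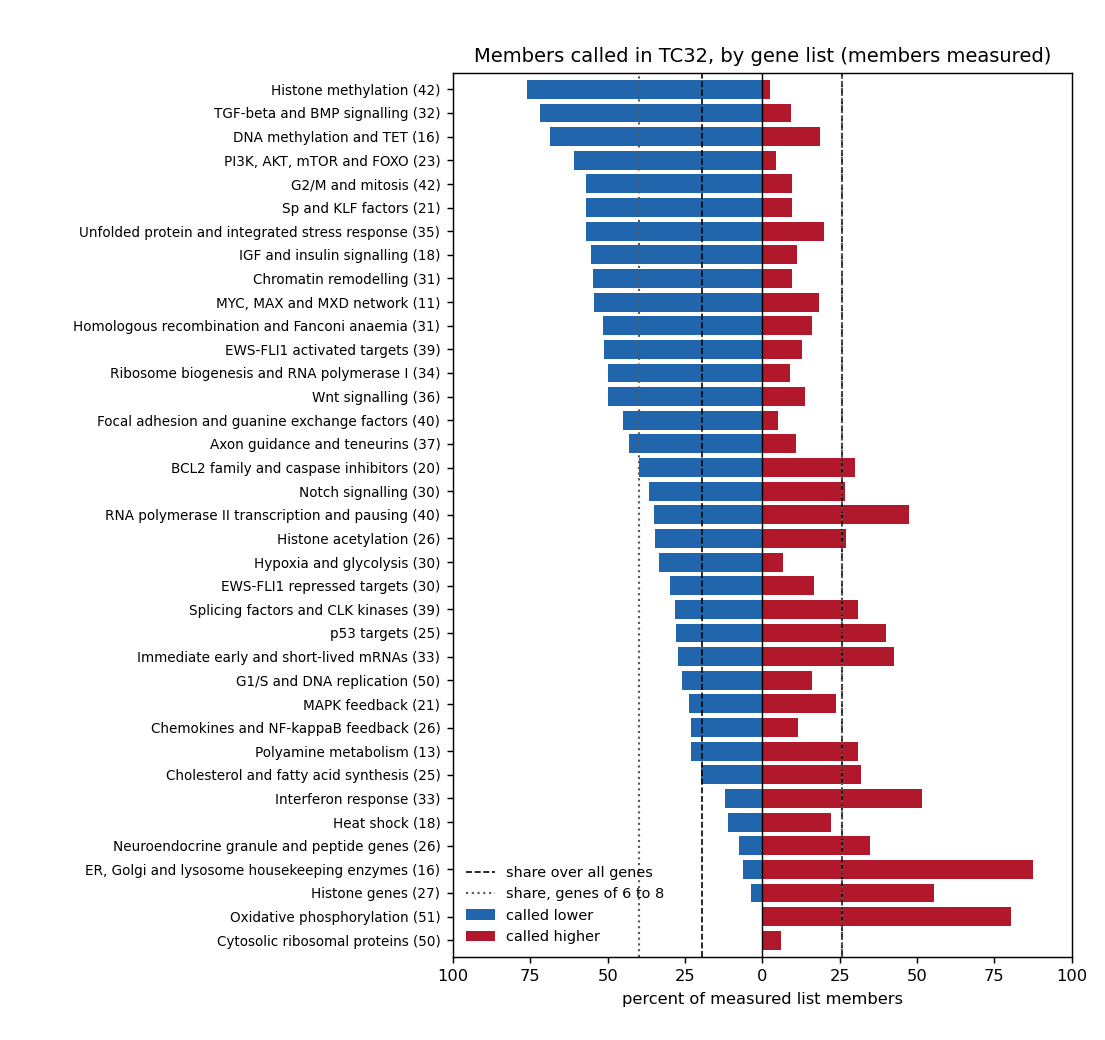
Percent of the measured members of each gene list that were called lower (blue, to the left) or higher (red, to the right) in TC32, with the number measured in brackets. Dashed lines mark the shares over all 19775 genes (19.4% and 25.6%), and dotted lines those over genes with a mean from 6 to 8 (39.8% and 25.9%). Histone methylation, TGF-beta and BMP signalling and DNA methylation reach furthest to the left, and the housekeeping enzymes of ER, Golgi and lysosome and oxidative phosphorylation furthest to the right.

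The mRNA of the fusion partner FLI1, whose 3' part the fusion transcript carries, stood at 8.15, 8.22 and 8.05 in controls and 7.2, 7.71 and 7.42 with mithramycin and fell by 0.70 ± 0.10 (adjusted p = 0.000171, limma). Only 3 of its 6 probe sets were called, with others up to 0.22. Probe positions were not used here, so wild-type and fusion transcripts were not separated. EWSR1, which provides the promoter and 5' part of the fusion, was at 0.11 ± 0.06 (adjusted p = 0.173), with 4 sets between -0.56 and 0.18. Its direction turned with the choice of set and with centring on hybridization controls. Of 39 measured genes known to be activated by EWS-FLI1, 20 fell and 5 rose, with a median of -0.23 against 0.083 over all genes. Besides BCL11B, PAPPA, a protease of IGF-binding proteins, stood at 10.55, 10.4 and 10.54 in controls and 8.14, 8.21 and 8.26 with mithramycin. PAPPA had 8 of 11 sets called lower and 1 called higher. GRK5, a kinase of G protein-coupled receptors, fell by 2.29 ± 0.09, but without the _x_at and _s_at sets it was at 0.035. The largest rise was that of PHLDA1, a gene induced by growth signals, which rose by 1.05 ± 0.11.

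Some well-known growth and identity genes of this tumour fell by less than 2-fold. NKX2-2, a homeobox gene needed for transformation in this tumour, stood at 9.03, 9.01 and 9.07 in controls and 8.45, 8.37 and 8.37 with mithramycin and fell by 0.64 ± 0.06. CCND1, the G1 cyclin D1, stood at 11.4, 11.34 and 11.49 in controls and 11.24, 11.18 and 11.12 with mithramycin and fell by 0.23 ± 0.06. MYC, a growth regulator, stood at 10.06, 10.05 and 10.04 in controls and 9.2, 9.22 and 9.19 with mithramycin and fell by 0.84 ± 0.06. In each of the 3 the groups did not overlap, as in 50.8% of all genes tested. Of 30 genes known to be repressed by the fusion, 9 fell and 5 rose. DKK1, a secreted Wnt inhibitor, fell by 2.06 ± 0.13, TNS1, a tensin of focal adhesions, fell by 1.58 ± 0.07, and the forkhead factor FOXO1 fell by 1.33 ± 0.07. CDKN1A, the cyclin-dependent kinase inhibitor p21, stood at 7.26, 7.13 and 7.18 in controls and 8.12, 8.03 and 8.06 with mithramycin, the largest rise on that list. TGFBR2, the type II TGF-beta receptor and a repressed target picked after its values were seen, fell by 1.21 ± 0.09, with its other set at 0.039.

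Of 21 Sp and KLF factors, 12 fell, 2 rose and 0 fell 2-fold, with a median of -0.22. With the mean of the probe sets of a gene 7 fell and 3 rose. SP1, which binds the GC box, stood at 8.57, 8.71 and 8.77 in controls and 8.24, 8.11 and 8.23 with mithramycin, and each of its 4 probe sets was called lower, between -0.72 and -0.49. SP3, a related factor, fell by 0.36 ± 0.09 at its brightest set, but its 5 sets ran from -0.39 to 0.52 and their mean was -0.02 (not called). KLF13 fell by 0.98 ± 0.07, and without the _x_at and _s_at sets it was at 0.071. KLF12 fell by 0.71 ± 0.09 and KLF4, a factor of epithelial and stem cells, fell by 0.57 ± 0.12. Their weakest sets were at 0.17 and 0.028. KLF5, a factor of epithelial growth, rose by 0.32 ± 0.09, a call lost with centring on hybridization controls and, at 0.24, without control replicate 1.

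Genes of the machinery of RNA polymerase II moved in both directions, as did genes of like brightness. Of 40 genes, 19 (47.5%) rose and 14 (35%) fell. Among all genes with a mean from 8 to 10 over both lines, 36.5% rose and 30.5% fell, and the difference was not tested. The median of the list was 0.11, against 0.083 over all genes. It became -0.12 with centring on hybridization controls (3 higher, 14 lower). HEXIM1, an inhibitor of the elongation factor P-TEFb, stood at 8.22, 8.36 and 8.16 in controls and 9.71, 9.83 and 9.71 with mithramycin. It rose by 1.5 ± 0.07, 1 of its 3 sets was at 2.65, and the set left without the _x_at and _s_at types was at -0.037. CCNT2, a cyclin of P-TEFb, fell by 1.26 ± 0.10, with 1 of 4 sets called higher. MED13L, of the kinase module of Mediator, fell by 1.26 ± 0.06, and its 5 sets were all called lower. The other members given here were picked after their values were seen. BRD2, a bromodomain protein of active chromatin, stood at 9.37, 9.2 and 9.36 in controls and 10.11, 10.13 and 10.07 with mithramycin. POLR2A, the largest subunit of the polymerase and also a housekeeping gene used for scaling, rose by 0.70 ± 0.08. CDK9, the kinase of P-TEFb, rose by 0.26 ± 0.07, a call lost with either centring. CDK12, a kinase of the elongating polymerase, fell by 1.06 ± 0.07, and 6 of its 8 sets were called lower.

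Histone methylation was the list with the highest share of falls among those examined. Of 42 genes, 32 (76.2%) fell and 1 rose, 14 fell at least 2-fold, and the median was -0.56. Falls numbered 32 when arrays were centred on housekeeping genes and 34 when they were centred on hybridization controls. KMT2C, a methyltransferase of histone H3 lysine 4 at enhancers, stood at 8.39, 8.39 and 8.37 in controls and 6.35, 6.5 and 6.22 with mithramycin. KDM6A, a demethylase of lysine 27 in the same complexes, fell by 1.83 ± 0.12, with its 4 sets all called lower. EHMT1, a methyltransferase of lysine 9, stood at 8.56, 8.64 and 8.59 in controls and 6.5, 7.01 and 6.82 with mithramycin. DOT1L, the lysine 79 methyltransferase, fell by 1.4 ± 0.18, and SETD2, the lysine 36 methyltransferase, fell by 1.16 ± 0.08. Both were picked after their values were seen, and the control arrays of DOT1L were spread between 6.46 and 7.05. The member that rose, SUV39H2, a methyltransferase of lysine 9, rose by 0.24 ± 0.07 at its brightest set, with its other set at -0.29 and their mean at -0.026, and the call was lost with either centring. EZH2, the lysine 27 methyltransferase of Polycomb, stood at 9.47, 9.35 and 9.47 in controls and 9.37, 9.37 and 9.4 with mithramycin, a change of -0.051 ± 0.06 (adjusted p = 0.523, limma).

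Of 26 genes of histone acetylation, 9 fell and 7 rose, 6 of them at least 2-fold lower. Beside HDAC4, CREBBP, an acetyltransferase and coactivator, stood at 8.75, 8.8 and 8.7 in controls and 6.51, 6.92 and 6.41 with mithramycin. Only 2 of its 4 sets were called. EP300, its close relative, picked after its values were seen, fell by 0.93 ± 0.06 with both sets called. NCOA2, a coactivator of nuclear receptors, fell by 1.33 ± 0.11. KAT2A, the acetyltransferase GCN5, rose by 0.46 ± 0.06, a call lost with centring on hybridization controls. Of 16 genes of DNA methylation and demethylation, 11 fell and 3 rose. TET3 stood at 7.8, 7.87 and 7.96 in controls and 6.14, 6.15 and 6.1 with mithramycin, with its weakest set at 0.11. TET2, picked after its values were seen, fell by 0.49 ± 0.08, and the mean of its 3 sets was -0.14 and not called. MBD5, of the methyl-binding family, fell by 2.05 ± 0.09 at its brightest set, and another set was called higher at 0.71. IDH2, a mitochondrial isocitrate dehydrogenase, rose by 0.39 ± 0.05, a call lost with centring on hybridization controls.

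Of 31 chromatin remodelling genes, 17 fell and 3 rose, with 5 at least 2-fold lower. ARID1A, a DNA-binding subunit of BAF complexes, stood at 9.87, 9.82 and 9.87 in controls and 8.24, 8.32 and 8.3 with mithramycin. INO80, an ATPase that moves nucleosomes, fell by 1.56 ± 0.07 with both of its sets called. CHD6 fell by 1.43 ± 0.11, with 2 of 4 sets called. SMARCE1, another BAF subunit, rose by 0.43 ± 0.06, a call lost with centring on hybridization controls. Each of the 3 genes that fell had groups that did not overlap, as did 50.8% of all genes tested.

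**Figure D4:**
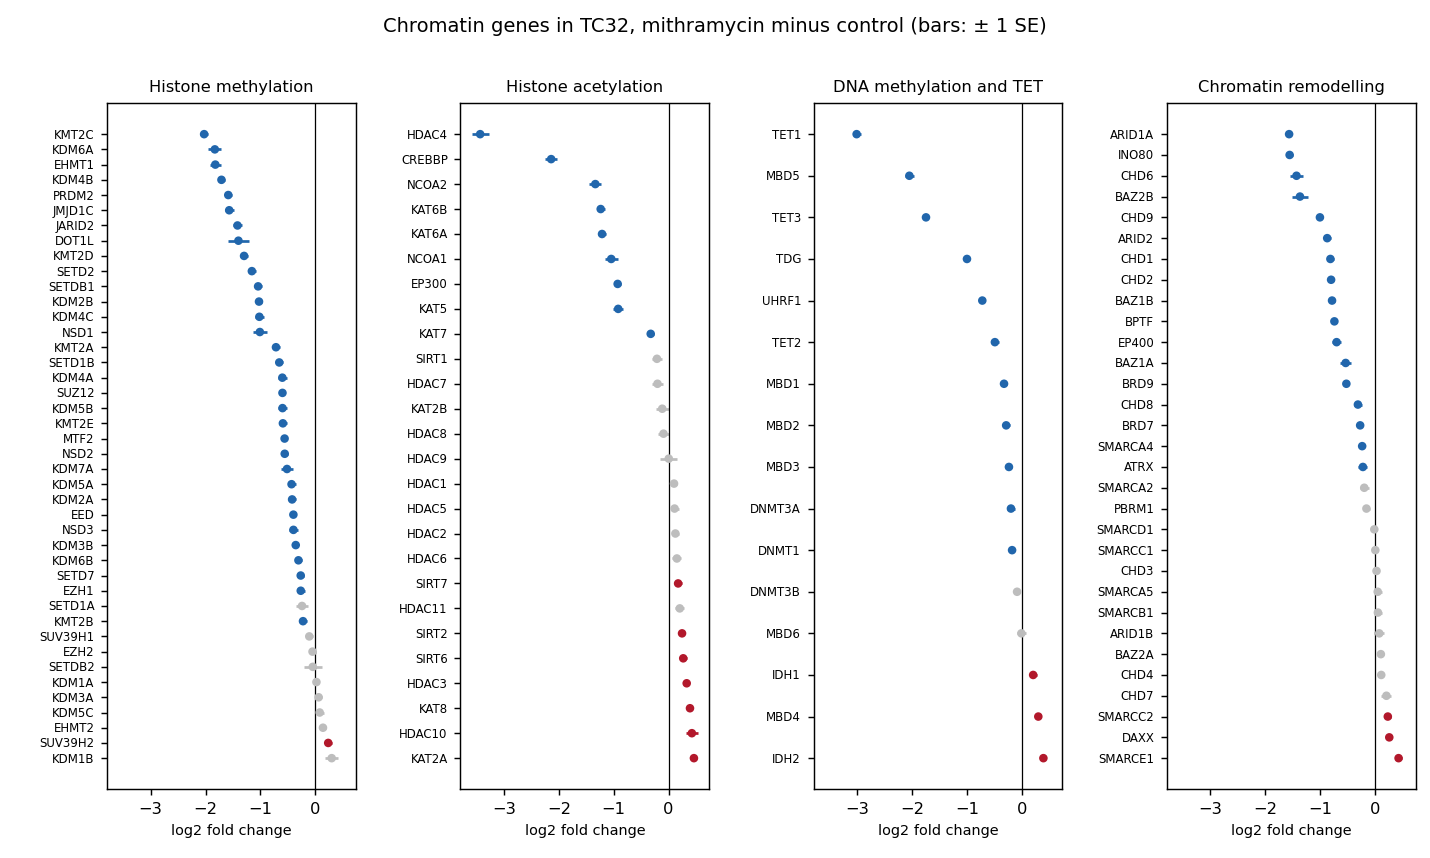
Log2 change with mithramycin in TC32 (horizontal axis, mithramycin minus control; bars, 1 SE of the limma fit, n = 3 arrays a group) for the measured genes of 4 chromatin lists. Blue points were called lower, red higher and grey not called. The histone methylation panel holds 32 blue points of 42, and HDAC4 at -3.43 and TET1 at -3.01 lie furthest to the left.

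Of 36 Wnt genes, 18 fell and 5 rose, with 10 at least 2-fold lower and a median of -0.39. Besides ZNRF3, TCF7L2 stood at 9.37, 9.43 and 9.28 in controls and 7.02, 7.2 and 7.09 with mithramycin. DKK1 stood at 8.74, 8.66 and 8.5 in controls and 6.5, 6.71 and 6.52 with mithramycin. FZD7, a Wnt receptor, stood at 6.56, 6.42 and 6.53 in controls and 7.3, 7.41 and 7.28 with mithramycin and rose. LGR5, the receptor of R-spondins, fell by 1.45 ± 0.14, and the coreceptor LRP6 fell by 1.18 ± 0.07 with its 3 sets all called. The last 2 were picked after their values were seen.

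Of 30 Notch genes, 11 fell and 8 rose. NOTCH1 fell by 1.16 ± 0.15 at its brightest set and its other set was at -0.0079. SPEN, a corepressor of Notch targets, fell by 1.04 ± 0.05 with 4 sets called lower, and HES4, a target of the pathway, rose by 0.58 ± 0.06. The ligand gene JAG1, picked after its values were seen, fell by 0.93 ± 0.07. Of 32 TGF-beta and BMP genes, 23 (71.9%) fell and 3 rose, with 9 at least 2-fold lower and a median of -0.48. After SMAD6, SKI, a repressor of SMAD proteins, stood at 8.85, 8.88 and 8.79 in controls and 7.09, 6.94 and 7.12 with mithramycin, although 1 of its 3 sets was called higher at 0.43. SMURF1, a ubiquitin ligase of the pathway, fell by 1.65 ± 0.07, with 2 of 5 sets called. ID1, a BMP target, rose by 0.40 ± 0.05, a call lost with centring on hybridization controls.

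Of 18 genes of IGF and insulin signalling, 10 fell and 2 rose. Beside PAPPA, IGF2BP2, a protein that binds IGF2 mRNA, fell by 1.49 ± 0.06, with its other set at 0.074. IGF1R, the receptor on which many Ewing sarcoma cells depend, stood at 8.55, 8.55 and 8.36 in controls and 7.31, 7.52 and 7.37 with mithramycin, with 5 sets between -1.53 and 0.16. IGFBP6, a protein that binds IGF2, rose by 0.32 ± 0.09, a call lost with either centring and, at 0.25, 0.29 and 0.25, without mithramycin replicate 2, control replicate 2 or control replicate 3. INSR, the insulin receptor, picked after its values were seen, fell by 1.05 ± 0.13. Of 23 genes of PI3K, AKT, mTOR and FOXO, 14 fell and 1 rose. PHLPP1, a phosphatase of AKT, fell by 1.82 ± 0.12, and PIK3CB, a catalytic subunit of PI3K, fell by 1.46 ± 0.12, each with a second set not called. TSC1, an inhibitor of mTOR, was the member that rose, by 0.58 ± 0.06. Of 21 genes of MAPK feedback, 5 fell and 5 rose. SPRED2, an inhibitor of RAF activation, stood at 7.68, 7.73 and 7.63 in controls and 5.65, 6.09 and 6.08 with mithramycin, and 1 of its 3 sets was called. DUSP7, a phosphatase of ERK, fell by 0.58 ± 0.12, with its other set at 0.18.

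Immediate early and short-lived mRNAs moved in both directions. Of 33, 14 rose and 9 fell, with a median of 0.16, and 6 rose and 10 fell with centring on hybridization controls. After TOB1, ATF3, a stress-induced factor, stood at 5.82, 6.0 and 5.96 in controls and 6.78, 7.26 and 7.0 with mithramycin. GADD45B, a stress sensor, stood at 6.88, 6.96 and 6.86 in controls and 7.82, 8.2 and 7.9 with mithramycin. FOSL2, a member of the AP-1 family, fell by 1.01 ± 0.08. Of 25 p53 targets, 10 rose and 7 fell, none by 2-fold, and with centring on hybridization controls 3 rose and 8 fell. CDKN1A led the rises, and XPC, which detects DNA damage for excision repair, rose by 0.66 ± 0.06. MDM2, which marks p53 for degradation, fell by 0.57 ± 0.09 at its brightest set, but its 10 sets ran from -0.81 to 0.82 and their mean was -0.065 (not called).

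Of 20 genes of the BCL2 family and caspase inhibitors, 8 fell and 6 rose. Among prosurvival members, BCL2L2 stood at 6.94, 6.93 and 6.97 in controls and 5.39, 5.49 and 5.44 with mithramycin and BCL2 fell by 1.45 ± 0.10, each by 1 called probe set. The other sets of BCL2 ran from -0.22 to 0.12 and that of BCL2L2 was at -0.056, all of them not called. CFLAR, an inhibitor of caspase activation at death receptors, fell by 1.07 ± 0.06 with 4 of 14 sets called, and its value was 0.012 when the _x_at and _s_at sets were dropped. PMAIP1 (NOXA), a BH3-only protein that opposes MCL1, stood at 10.14, 10.28 and 10.14 in controls and 11.16, 11.15 and 11.18 with mithramycin, and both sets were called higher. MCL1 itself was at 0.083 ± 0.05 (adjusted p = 0.21, limma) at its brightest set. The mean of its 6 sets was -0.23 and was called lower (adjusted p = 0.0055, limma), with single sets between -0.99 and 0.28. At their brightest sets BCL2 and BCL2L2 fell while PMAIP1 rose.

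Of 42 G2/M genes, 24 (57.1%) fell and 4 rose, 1 falling at least 2-fold, with a median of -0.16, and 13 fell when the _x_at and _s_at sets were dropped, with fewer genes tested. KIF11, a spindle motor, stood at 9.13, 9.16 and 9.1 in controls and 8.0, 8.29 and 8.05 with mithramycin. CENPE, a kinetochore motor, fell by 0.81 ± 0.07, and the checkpoint kinase BUB1B fell by 0.80 ± 0.05. NEK2, a kinase of centrosome separation, rose by 0.48 ± 0.06, a call lost with centring on hybridization controls. Of 50 genes of G1/S and replication, 13 (26%) fell, 8 rose and 29 did not pass the test. RBL1, the retinoblastoma-like protein p107, fell by 1.6 ± 0.16 at its brightest set, with its other sets between -0.44 and 0.022. E2F3 fell by 0.91 ± 0.07, and RFC3, a subunit of the clamp loader, fell by 0.97 ± 0.07 with 1 of 3 sets called higher. GINS4, of the replicative helicase, rose by 0.41 ± 0.06, a call lost with centring on hybridization controls. Whether the lists differed was not tested.

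Repair of crosslinks and broken ends by recombination was covered by 31 genes, of which 16 fell and 5 rose. BARD1, the partner of BRCA1, stood at 8.56, 8.63 and 8.62 in controls and 7.39, 7.51 and 7.39 with mithramycin. FANCF, an adaptor of the Fanconi core complex, fell by 0.93 ± 0.07, and the helicase BLM fell by 0.91 ± 0.05. Every probe set of the 3 genes was called lower. RAD52, which anneals DNA strands, rose by 0.42 ± 0.06 at its brightest set, while 2 of its 4 sets were called lower, down to -0.78, and their mean was -0.26. On the list of unfolded protein and integrated stress responses, 20 of 35 (57.1%) fell and 7 rose, and 13 fell when the _x_at and _s_at sets were dropped. ERN1, the sensor IRE1, stood at 6.72, 6.66 and 6.64 in controls and 4.55, 4.87 and 4.59 with mithramycin, with 1 of its 3 sets at 0.28. VLDLR fell by 1.12 ± 0.09, and ATF3 led the rises. ATF4, the central factor of the integrated stress response, picked after its values were seen, stood at 11.23, 11.23 and 11.33 in controls and 10.19, 10.14 and 10.2 with mithramycin. Among 18 heat shock genes 4 rose and 2 fell. DNAJB4, a cochaperone, rose by 0.91 ± 0.10, and DNAJB6 fell by 0.39 ± 0.10. DNAJB1, another cochaperone, fell by 0.34 ± 0.05 with 1 of 2 sets called.

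Of 30 genes of hypoxia and glycolysis, 10 (33.3%) fell and 2 rose, beside 30.5% called lower among all genes with a mean from 8 to 10. PFKFB3, which makes the activator of phosphofructokinase, stood at 9.64, 9.73 and 9.66 in controls and 7.52, 7.52 and 7.52 with mithramycin. VEGFA, which drives vessel growth, fell by 0.95 ± 0.07 at its brightest set, with its other sets between -0.27 and -0.018. HK2, hexokinase 2, fell by 0.89 ± 0.08 with its 3 sets called. ALDOC, an aldolase, rose by 0.86 ± 0.09. Of 25 genes of cholesterol and fatty acid synthesis, 8 rose and 5 fell. SREBF1, a factor that drives lipid synthesis, fell by 0.81 ± 0.06, and HSD17B7, an enzyme of the cholesterol pathway, rose by 0.44 ± 0.08, a call lost with centring on hybridization controls. INSIG1, which retains the sterol sensor in the ER, fell by 0.50 ± 0.10.

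Nuclear-encoded genes of oxidative phosphorylation rose together by small amounts as deposited, with 41 of 51 (80.4%) called higher, 0 lower and a median of 0.23. Only 16 were called with centring on housekeeping genes, and 0 were called in either direction with centring on hybridization controls, which left a median of 0.006. Relative to the median of all genes they stood at 0.15. The complex I genes NDUFB5 and NDUFB7 rose by 0.48 ± 0.06 and by 0.48 ± 0.07, and NDUFA6 stood at 10.71, 10.82 and 10.79 in controls and 11.12, 11.23 and 11.21 with mithramycin. Of 16 housekeeping enzymes of ER, Golgi and lysosome, 14 rose and 1 fell, and 2 rose and 1 fell with centring on hybridization controls. LAMP2, a lysosomal membrane protein, rose by 0.71 ± 0.05, though its value was -0.16 when the _x_at and _s_at sets were dropped, and NPC2, a lysosomal cholesterol carrier, rose by 0.52 ± 0.05. The sialidase NEU1 rose by 0.49 ± 0.06, a call lost with centring on hybridization controls. NPC1, the membrane partner of NPC2, fell by 0.48 ± 0.07 at its brightest set, with 1 of its 4 sets called higher at 0.34 and a mean that was not called. Of 50 cytosolic ribosomal protein genes, 3 rose and 0 fell. They were RPL36 (0.24), RPS25 (0.19) and RPL34 (0.14), whose calls were lost with centring on housekeeping genes, and RPS25 and RPL34 turned to -0.037 and -0.087 with centring on hybridization controls. Of 34 genes of ribosome biogenesis and RNA polymerase I, 17 fell and 3 rose. WDR43, a factor of the small ribosomal subunit, fell by 0.93 ± 0.09. TAF1B, of the RNA polymerase I initiation factor, fell by 0.87 ± 0.08 with both sets called. POLR1D, a subunit that RNA polymerases I and III share, fell by 0.94 ± 0.05 at its brightest set, while 2 of its 3 sets were called higher and their mean was 0.21. POLR1F, a subunit of RNA polymerase I, rose by 0.67 ± 0.06.

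Interferon response and histone genes moved up as deposited. Of 33 interferon genes, 17 rose and 4 fell, and with centring on hybridization controls 7 rose and 6 fell. After SLFN5, IFIT1, an RNA-binding effector, stood at 4.69, 4.9 and 4.42 in controls and 5.34, 5.74 and 5.43 with mithramycin, and the ubiquitin-like modifier ISG15 at 7.97, 8.15 and 8.05 in controls and 8.84, 8.81 and 8.81 with mithramycin. IFIT3 fell by 0.73 ± 0.11. Of 27 histone genes, 15 rose and 1 fell (4 and 2 with centring on hybridization controls), with a median of 0.21. H2BC21 stood at 3.61, 3.32 and 3.47 in controls and 4.73, 4.56 and 4.62 with mithramycin, near the floor of the arrays. H2BC5 rose by 0.71 ± 0.08 and H2BC12 rose by 0.70 ± 0.07, both with groups that did not overlap, as for 50.8% of all genes tested. The linker histone H1-4 was at -0.20 ± 0.08 (adjusted p = 0.0483, limma), a call lost at -0.13 without mithramycin replicate 1, in 8 of the 11 other fits that left out an array and with the replicate block. Histone genes are near-identical copies, so probe sets may not tell them apart. Of 26 chemokine and NF-kappaB feedback genes, 6 fell and 3 rose. With CXCL8, TRAF3, an adaptor that restrains NF-kappaB signalling, fell by 1.16 ± 0.06. The chemokine CXCL1 fell by 0.76 ± 0.08 from control levels near the array median, and NFKBIZ, an inducible nuclear member of the family, rose by 0.72 ± 0.09.

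Of 39 splicing factors and CLK kinases, 12 rose and 11 fell. RSRP1 led the rises. DYRK1A, a kinase of splicing factors, fell by 1.54 ± 0.07 at its brightest set, while 2 of its 5 sets were called higher and its value was 0.24 when the _x_at and _s_at sets were dropped. RBM25 fell by 1.3 ± 0.06, with 5 of 7 sets called lower. Of 13 genes of polyamine metabolism, 4 rose and 3 fell. Opposite to SAT1, AZIN1, which blocks the antizymes that limit polyamine synthesis, fell by 0.88 ± 0.05, with 1 of its 3 sets called higher at 0.25. AMD1, which makes the aminopropyl donor of polyamine synthesis, fell by 0.80 ± 0.07.

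Of 40 genes of focal adhesion and guanine exchange factors, 18 fell and 2 rose, 9 of them at least 2-fold lower. After VAV2, TNS3, a tensin, stood at 6.36, 6.81 and 6.28 in controls and 4.54, 4.88 and 4.56 with mithramycin, and the exchange factor TRIO fell by 1.73 ± 0.08 with 5 of 9 sets called. ILK, a kinase that joins integrins to actin, rose by 0.38 ± 0.06, a call lost with centring on hybridization controls. Of 37 genes of axon guidance and teneurins, 16 fell and 4 rose. The teneurin TENM2 stood at 8.97, 8.76 and 8.78 in controls and 6.87, 6.82 and 6.81 with mithramycin, and the netrin NTN4 fell by 1.87 ± 0.06. SEMA4D, a semaphorin, fell by 1.93 ± 0.14 at its brightest set, with its other set called higher at 0.22. SEMA5A, another semaphorin, rose by 0.36 ± 0.11 from control levels near the array median, a call lost with centring on hybridization controls, with the mean of its sets and, at 0.26, 0.32 and 0.31, without mithramycin replicate 1, control replicate 2 or control replicate 3. Of 26 neuroendocrine granule and peptide genes, 9 rose and 2 fell (4 and 5 with centring on hybridization controls). Beside the rises of SCG5 and UCN, SYT1, a calcium sensor of vesicle release, stood at 9.15, 8.99 and 9.16 in controls and 7.29, 7.1 and 7.07 with mithramycin. Of 11 genes of the MYC network, 6 fell and 2 rose, and MGA, a factor that pairs with MAX, fell by 1.08 ± 0.06 with 3 of 4 sets called. MXD1, a repressor that competes with MYC for MAX, rose by 0.68 ± 0.13 from control levels below the array median, with 2 of 3 sets called.

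The response of TC71, whose arrays share no control with those of TC32, served to show where the TC32 response differed. In TC71 7018 genes (35.5%) were called in either direction, and the difference of the effects (TC71 minus TC32) was called for 1975 genes (9.99%). Of the 670 genes at least 2-fold lower in TC32, 571 (85.2%) were called lower in TC71 and 10 higher. The difference was called for 328 (49.0%) with the larger fall in TC32 and for 44 with the larger fall in TC71. Of the 161 genes at least 2-fold higher in TC32, 136 (84.5%) were called higher in TC71 and 0 lower, with 94 (58.4%) called as larger in TC32 and 1 as larger in TC71. Medians were -1.30 in TC32 and -0.97 in TC71 for the falls and 1.24 and 0.72 for the rises. The genes were chosen by their change in TC32, which favours a larger change there. Of the 328, 64 (19.5%) had TC71 controls with a mean below 4.38, the mean array median. On the TC71 arrays the 3' set of beta-actin exceeded the 5' set by 2.0, 1.08 and 1.28 in controls and by 0.79, 0.86 and 0.99 with mithramycin. The median of the housekeeping genes ran from 11.54 to 11.71 in TC71 controls and from 11.84 to 11.88 with mithramycin. The part of both in the differences between the lines was not tested.

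**Figure D5:**
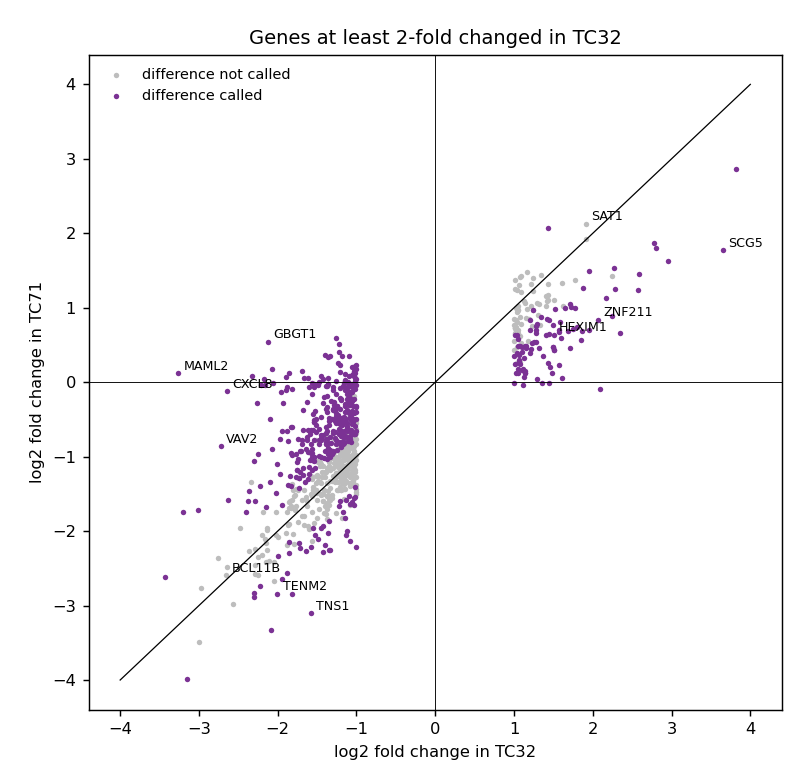
Log2 change in TC71 (vertical axis) against that in TC32 (horizontal axis), mithramycin minus control, for the 670 genes at least 2-fold lower and the 161 at least 2-fold higher in TC32. Purple points are genes whose difference between the lines was called, and the diagonal marks equal change. Most points lie on the side of the same direction, and MAML2, GBGT1 and CXCL8 lie at or above 0 or close to it in TC71, where their controls were below the array median.

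The 5 genes with the largest difference in each direction, among genes called in TC32 with a mean of at least 6, were taken by rule. MAML2 changed by -3.26 in TC32 and 0.12 in TC71 (difference 3.38, adjusted p = 1.45e-06, limma). GBGT1, a glycosyltransferase of glycolipids, stood at 7.04, 6.85 and 7.0 in controls and 4.98, 4.6 and 4.94 with mithramycin in TC32 and changed by 0.54 in TC71. CCN2, a matricellular protein and target of YAP, stood at 11.04, 11.08 and 11.01 in controls and 10.21, 10.25 and 10.32 with mithramycin in TC32 and changed by 1.73 in TC71. SFMBT2, a Polycomb-related protein, stood at 6.47, 7.04 and 6.57 in controls and 4.34, 4.48 and 4.28 with mithramycin in TC32 and changed by 0.09 in TC71, and its other set in TC32 was at 0.099. CXCL8 changed by -0.12 in TC71. The means of the TC71 controls were 2.48 for MAML2, 3.48 for GBGT1, 3.17 for SFMBT2 and 2.98 for CXCL8, below the mean array median of 4.38, so a fall could hardly be measured there. CCN2 rose in TC71 from 4.74, 4.92 and 4.76 in controls, a level far below that in TC32. In the other direction by sign, TNS1, RIN2, an exchange factor for RAB5, and SH3PXD2A, a scaffold of invadopodia, fell by 1.58, 0.45 and 0.59 in TC32 and changed by -3.1, -2.14 and -1.94 in TC71. SCG5 and SLFN5 completed this group, with 1.77 and 0.88 in TC71 against 3.65 and 2.25 in TC32.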

How the data were processed

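RNA of 12 samples was measured on 1-colour oligonucleotide arrays, 1 array per sample, and the labels gave the 4 groups of 3, the dose (100 nM) and the time (6 h). The authors deposited log2 values per probe set, and RMA is named in the submitters' processing notes, with neither version nor settings given in the sources used here. The method gives all arrays 1 distribution before probes are summarized, so changes are relative to other genes. Detection calls and scan dates were not used here, and neither signal over background nor batch was tested.

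Of 54675 probe sets, 41091 carried a single symbol in the platform annotation, 1801 carried several, 11721 were unnamed here and 62 were controls. Symbols were updated through Entrez identifiers in the RefSeq table of GRCh38.p14 (41037 matched). Each of 19775 genes was represented by its brightest probe set over all arrays. All 12 arrays entered 1 linear model with 4 group means (limma 3.58.1, R 4.3.3, empirical Bayes). Adjusted p-values are two-sided, with Benjamini-Hochberg adjustment over all genes, and genes were called under 0.05. Errors of changes are standard errors (n = 3 arrays a group). The script was tested on simulated data.

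Named genes were the 12 largest falls and rises with groups that did not overlap and a mean of at least 6 in the higher group; the 8 largest each way with at least 3 probe sets called alike; the 3 called members of each list with the largest change and the largest the other way; the 5 largest differences between the lines each way; and a few fixed genes. The members, lists and tests were chosen with earlier results of these data known. Shared replicate numbers were checked as pairs without a clear answer, and the main fit did not pair the samples. The alternatives were other probe set rules, a level filter, other scalings, an intensity trend, TC32 arrays alone, a replicate block and leaving out each array.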

Additional observations from a re-analysis of the deposited data

Results flagged for a closer look

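Of 193 genes named above, 81 had a difference between the responses of TC71 and TC32 that passed the limma test of that difference (adjusted p under 0.05), and in 65 of them the change was larger in size in TC32, by which most of these genes were chosen. Each value below is the TC71 effect minus the TC32 effect in log2 units, so that a positive value beside a fall means a smaller fall, or none, in TC71. For 12 of the falls the TC71 controls had a mean below the mean array median of 4.38, so that a fall could hardly be measured there: MAML2, CXCL8, KLF4, DKK1, LGR5, VLDLR, CXCL1, TNS3, SEMA4D, NTN4, GBGT1 and SFMBT2. Groups of 3 arrays were not examined for single outlying arrays.

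Among the 12 largest falls and 12 largest rises the difference was 0.82 for HDAC4, 3.38 for MAML2, 1.46 for RFXAP, 1.29 for TET1, 1.86 for VAV2, 2.52 for CXCL8 and 1.05 for ZNF764. Differences in the other direction were -0.95 for ALDH8A1, -1.88 for SCG5, -1.0 for HOXB-AS1, -1.02 for LEAP2, -1.37 for SLFN5, -1.04 for UCN, -1.23 for ZNF211, -1.25 for LINC01198, -0.45 for TOB1 and -0.61 for RSRP1. Among genes with probe sets that moved alike the difference was 0.85 for MLLT3 and 1.73 for SLITRK6. Differences in the other direction were -0.61 for KRCC1, -0.88 for CDKL3, -0.61 for KLHL28 and -0.46 for LOC101928728. For chromatin and transcription genes the difference was 0.81 for CCNT2, 0.37 for CDK12, 1.16 for KLF4, 0.44 for KLF5, 0.28 for POLR1D, 0.54 for DYRK1A, 0.37 for RBM25 and 2.42 for SFMBT2. Differences in the other direction were -1.03 for EHMT1, -0.87 for HEXIM1, -0.85 for KLF12 and -0.34 for POLR1F. For fusion targets and signalling genes the difference was 0.81 for NKX2-2, 2.05 for DKK1, 0.42 for FOXO1, 0.85 for TGFBR2, 1.53 for LGR5, 0.36 for SPEN, 0.81 for JAG1, 1.03 for FOSL2, 2.51 for CCN2 and 2.66 for GBGT1. Differences in the other direction were -0.59 for PAPPA, -0.72 for CCND1, -1.52 for TNS1, -0.40 for CDKN1A, -0.46 for FZD7, -0.36 for HES4, -0.51 for ID1 and -1.05 for IGF1R. For cell cycle, repair, survival and stress genes the difference was 0.93 for BCL2L2, 0.64 for CFLAR, 0.50 for MCL1, 0.37 for CENPE, 0.67 for BARD1, 0.90 for FANCF, 0.91 for ERN1, 0.84 for VLDLR, 0.44 for ATF4 and 0.38 for DNAJB1. It was -0.41 for XPC. For metabolic genes the difference was 0.47 for PFKFB3, 0.42 for SREBF1 and 0.41 for AZIN1. It was -0.40 for NDUFB5. For interferon, chemokine and histone genes the difference was 0.65 for CXCL1 and 0.56 for NFKBIZ. Differences in the other direction were -0.28 for ISG15 and -0.42 for H2BC12. For adhesion, axon, granule and neural marker genes the difference was 1.73 for TNS3, 1.65 for SEMA4D, 1.08 for NTN4 and 1.05 for NEFL. Differences in the other direction were -0.44 for TRIO, -0.84 for TENM2, -0.69 for SYT1, -1.68 for RIN2 and -1.35 for SH3PXD2A.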

How the results depend on the processing

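Of the 193 named genes, 190 were called, and 141 of all 193 kept their direction and their side of the threshold under each of the 21 alternatives that gave them a value. Genes at least 2-fold lower numbered 316 with the mean of the probe sets of a gene. With every named probe set 8516 were higher, 7697 lower, 341 and 1413 at least 2-fold higher and lower, and 3125 differed between the lines, over 41091 features in place of 19775. A filter at a mean of 6 left 2966 higher, 61 at least 2-fold higher and 441 at least 2-fold lower, since fewer genes were tested. Centring on housekeeping genes gave 2723 higher and 3042 that differed between the lines. Centring on hybridization controls gave 698 higher, 83 and 1112 at least 2-fold higher and lower, and 3125 that differed. The cause was not tested.

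With the mean of probe sets the direction turned for EWSR1 (-0.092), MCL1 (-0.23), SUV39H2 (-0.026), RAD52 (-0.26) and POLR1D (0.21). Without the _x_at and _s_at sets it turned for SMAD6 (0.28), HEXIM1 (-0.037), KLF13 (0.071), EWSR1 (-0.56), GRK5 (0.035), CFLAR (0.012), MCL1 (-0.073), DYRK1A (0.24) and LAMP2 (-0.16). Centring on hybridization controls turned EWSR1 (-0.12), MCL1 (-0.15), RPS25 (-0.037), RPL34 (-0.087) and ELAVL3 (-0.035). Leaving out 1 array at a time gave 4229 to 5316 higher, 3485 to 3903 lower, 141 to 165 at least 2-fold higher, 637 to 718 at least 2-fold lower and 1479 to 2125 that differed between the lines. Of the 193 named genes 13 lost their call when an array was left out. Calls were lost without mithramycin replicate 1 for H1-4 (-0.13), SEMA5A (0.26), NEFL (-0.46), ELAVL3 (0.22), THY1 (0.19), CD14 (0.34), KRT5 (0.26), KRT19 (0.31) and VWF (0.18). They were lost without mithramycin replicate 2 for IGFBP6 (0.25), NEFL (-0.59), ELAVL3 (0.17) and KRT19 (0.29). They were lost without mithramycin replicate 3 for RPL34 (0.13), ELAVL3 (0.20), CD14 (0.30), KRT5 (0.32) and KRT19 (0.27). They were lost without control replicate 1 for KLF5 (0.24), RPL34 (0.13), H1-4 (-0.18), ELAVL3 (0.19) and KRT19 (0.31). They were lost without control replicate 2 for IGFBP6 (0.29), H1-4 (-0.22), SEMA5A (0.32), NEFL (-0.49), ELAVL3 (0.19), THY1 (0.17), CD14 (0.34), KRT19 (0.24) and VWF (0.28). They were lost without control replicate 3 for IGFBP6 (0.25), H1-4 (-0.20), SEMA5A (0.31), TUBB (-0.15), ELAVL3 (0.20), CD14 (0.35), KRT19 (0.32) and VWF (0.26). H1-4 and ELAVL3 also lost theirs without single TC71 arrays, which enter the shared estimate of the spread. Arrays with the same replicate number in TC32 correlated at 0.08, 0.24 and 0.04 in their deviations from the group means. Arrays with different numbers there correlated at -0.19 to 0.12. In TC71 those with the same number correlated at -0.071 to -0.012. These few values do not settle whether the numbers mark pairs, and the main fit did not take them as pairs. With the replicate block 4998 genes were higher and 3749 lower, and of the named genes RPL34 (0.14), H1-4 (-0.20) and ELAVL3 (0.19) lost their call with the block. Over all alternatives the falls numbered 26 to 34 on the histone methylation list, 7 to 13 on the Sp and KLF list and 13 to 29 on the G2/M list. With 3 arrays a group, and no detection calls used here, small changes and levels near the floor are the least certain.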

Other observations

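Other short sequences in the promoter windows were also counted. GGAAGGAA, a pair of ETS core motifs, stood on either strand in 3.54% of the matched promoters of all genes tested, in 2.44% of those of genes at least 2-fold lower and in 3.54% of those of genes at least 2-fold higher. CACGTG, the E-box, which reads alike on both strands, stood in 8.90%, 9.95% and 7.96%. These shares are descriptions of 300-base windows.

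Of 15 measured housekeeping genes used for scaling, 3 were called higher and 1 lower in TC32, with a median change of 0.04.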
